A study of Mus musculus with 6 samples.

Results

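Zinc finger genes numbered Zfp900 to Zfp999, together with Gm13212, a gene of the same kind without a Zfp number, were examined in mouse intestinal crypts with and without the co-repressor MTG16. The genes were chosen by symbol. A row of the deposited table was taken when its symbol was Zfp9 followed by 2 digits. Gm13212, of a zinc finger gene cluster on chromosome 4, was added by name. Its position does not set it apart, since Zfp600, Rex2, Zfp534 and Znf41-ps of the same cluster were not added. This gave 57 genes of 24736 in the table, of which 12 lay in the chromosome 4 cluster and 45 elsewhere. The set was proposed with the difference between Mtg16-/- and WT crypts already known, so the differences of these genes are given as a description, with no p-value for any single gene.

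Zinc finger proteins of this type bind DNA through rows of C2H2 fingers, each of which folds around a zinc ion and contacts a few bases. Many carry a KRAB domain, which recruits the scaffold protein TRIM28 (KAP1), the histone methyltransferase SETDB1 and HP1 proteins, and so places repressive histone methylation at the bound site. Their genes arose by repeated local duplication, stand in clusters of close copies, and encode proteins best known for silencing endogenous retroviruses and other transposable elements.

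RNA sequencing was carried out on crypts released with EDTA from the full length of the gut of 12-week-old males, 3 WT and 3 Mtg16-/-, with 1 library per mouse and no treatment in either group. The labels call the mutation CRISPR-induced, whereas the methods of the study describe animals given by another laboratory, and this conflict was not settled. The mutation was present in the whole animal and not only in the gut, and no strain background is given in the labels used here. RNA depleted of ribosomal RNA was sequenced, and expression is given in TPM, a level corrected for transcript length and scaled so that each library has the same sum. TPM holds no number of reads, and the depth of the libraries is therefore unknown.

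The targeted gene was looked at first. Cbfa2t3, which encodes MTG16, stood at 3.67, 6.69 and 4.52 TPM in WT and at 4.62, 6.43 and 3.23 TPM in the libraries labelled Mtg16-/-. The groups overlapped, and the difference on the log2(TPM + 1) scale was -0.06 (SE 0.27, adjusted p = 0.937 from limma). A TPM summed over the exons of a gene does not reveal a deleted exon, and Cbfa2t3 did not tell the genotypes apart, and every direction below rests on the labels. The libraries were epithelial by their markers, since all 15 epithelial genes were present. Their summed TPM was 13694 to 15675 in WT and 14750 to 17530 in Mtg16-/-. This list mixes genes of crypt and villus, so it cannot show how free the crypts were of villus cells. The 10 genes of stroma and vessels summed to at most 20.1 TPM in any library.

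Most members of the chromosome 4 cluster with promoter data share a promoter sequence. It matched no gene outside chromosome 4 in the promoter table. Its bounds on the Gm13212 promoter were set by hand, so the number of matches is a description and no independent support. Promoter windows from RefSeq (GRCm38.p6, 250 bases before to 50 after each gene's start) were at hand for 51 of the 57 genes and for 9 of the 12 cluster members. A stretch of 86 bases that ends 53 bases before the start of Gm13212 was found in 8 of these 9 cluster members. Zfp982 also had windows at other starts that lacked it, with best alignments differing by 37 and 40 bases. It is written below 5′ to 3′ on the strand of each gene, in lower case, with capitals for bases that differ from Gm13212 in the alignment or are inserted, while bases missing against Gm13212 leave no mark.
Gm13212: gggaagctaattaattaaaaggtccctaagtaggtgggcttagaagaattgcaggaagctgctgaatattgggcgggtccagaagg
Zfp984: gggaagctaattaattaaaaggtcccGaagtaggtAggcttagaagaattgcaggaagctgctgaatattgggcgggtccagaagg
Zfp981: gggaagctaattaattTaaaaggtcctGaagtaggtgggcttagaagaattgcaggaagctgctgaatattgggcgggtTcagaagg
Zfp982: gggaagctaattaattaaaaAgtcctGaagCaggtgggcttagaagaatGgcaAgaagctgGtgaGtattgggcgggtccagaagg
Zfp985: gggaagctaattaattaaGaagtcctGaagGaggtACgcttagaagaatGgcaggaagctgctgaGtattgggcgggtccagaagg
Zfp979: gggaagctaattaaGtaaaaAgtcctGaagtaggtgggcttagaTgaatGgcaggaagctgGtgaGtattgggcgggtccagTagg
Zfp980: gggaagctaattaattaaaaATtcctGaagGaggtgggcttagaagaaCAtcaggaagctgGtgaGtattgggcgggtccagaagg
Zfp987: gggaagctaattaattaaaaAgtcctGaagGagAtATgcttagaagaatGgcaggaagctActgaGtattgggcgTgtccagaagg

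The stretch of Gm13212 lies at chr4:145585061-145585146 on the plus strand and that of Zfp984 at chr4:147809856-147809941 on the minus strand. Zfp984 was the closest to Gm13212, with 2 differences. Zfp981 (chr4:146514757-146514843) differed from Gm13212 by 4 bases, and the other 5 members by 8 to 11. None of the 8 stretches overlapped an exon of GENCODE vM21, but those of Zfp984, Zfp981 and Zfp982 lie inside the RefSeq record of their gene, which reaches beyond the start used here. In the 32851 promoter windows of the table, read on both strands and with up to 21 differences allowed, the stretch was found in 12 (0.0365%). All 12 belonged to zinc finger genes on chromosome 4, namely the 8 members and Zfp600, Rex2, Zfp534 and Zfp988, the last of which was not analysed here. Zfp933, at the far edge of the cluster, had no such match, and Zfp990, Zfp991 and Zfp992 had no window to search. A 9-base piece of the stretch, GCTAATTAA, was searched on both strands. It occurred in 49 of all windows (0.149%) and in 8 of the 59 windows of the members, all 8 in the cluster. Each of these 8 windows holds the stretch that the piece was cut from, so their matches add no separate support.

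E-boxes, the sites of basic helix-loop-helix factors such as those that MTG proteins work with, were also searched. CAGCTG, which reads the same on both strands, was present in 8 of the 59 windows (13.6%) against 16.3% of all windows. CAGATG, searched also as CATCTG for the other strand, was present in 14 of the 59 (23.7%) against 17.2%. Zfp984 was the only cluster member with CAGCTG and Zfp933 the only one with CAGATG. A window could hold both motifs, and a match is a run of letters and not a bound site.

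The reading frames of the cluster mostly shared a KRAB match but differed widely in their number of C2H2 fingers. In the longest open reading frame of each GENCODE transcript, 1 fixed pattern for the KRAB box was searched. It was matched in 11 of the 12 cluster members, the exception being Zfp933, and in 24 of the other 45 genes. Among the 8 members of a run on chromosome 2 it was matched in 0. A KRAB box that departs from the pattern is missed, so a gene without a match may still encode the domain. The number of C2H2 matches ranged from 3 in Zfp979 to 20 in Gm13212, with a median of 11 in the cluster and of 11 in the other genes. Close copies limit what short reads can tell apart. For Zfp991, 73.8% of the 100-base stretches of its longest transcript also occurred in a transcript of another gene, most often the pseudogene Znf41-ps. The share was 29.2% for Gm13212 and 29.9% for Zfp984, each with the other as the closest match, 28.6% for Zfp992 and 0% for Zfp933.

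Gm13212 (chr4:145585172-145625343) differed most between the groups. It had a TPM of 1.16, 0.59 and 1.04 in WT and of 3.09, 8.89 and 5.34 in Mtg16-/-. All 3 Mtg16-/- libraries were above all 3 WT libraries, with library 1 the lowest of them. The WT mean was 0.93 ± 0.3 (SD, n = 3) and the Mtg16-/- mean 5.77 ± 2.92 (SD, n = 3), which gives a ratio of 6.21. On the log2(TPM + 1) scale, which understates the change of weakly expressed genes, the difference was 1.73 (SE 0.33).

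Zfp984 (chr4:147753974-147812229), whose promoter stretch is closest to that of Gm13212, had a TPM of 5.57, 3.73 and 4.03 in WT and of 6.14, 12.54 and 12.13 in Mtg16-/-. Zfp991 (chr4:147132093-147180579), the close copy of Znf41-ps, had a TPM of 4.71, 3.72 and 4.93 in WT and of 5.71, 12.38 and 12.93 in Mtg16-/-. In both genes the groups did not overlap, but library 1 of Mtg16-/- lay only just above the highest WT library while libraries 2 and 3 stood far above it. The log2 difference was 1.01 (SE 0.27) for Zfp984 and 0.99 (SE 0.29) for Zfp991, with ratios of mean TPM of 2.31 and 2.32.

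Zfp992 (chr4:146449030-146469440) had a TPM of 0.82, 0.81 and 0.36 in WT and of 0.75, 4.12 and 2.58 in Mtg16-/-, a log2 difference of 0.95 (SE 0.39). Here library 1 of Mtg16-/- fell inside the WT range, so the groups overlapped. Zfp933 (chr4:147822986-147849126), the cluster member without a KRAB match, had a TPM of 3.7, 2.6 and 3.48 in WT and of 3.09, 5.29 and 4.18 in Mtg16-/-. Its groups overlapped and its log2 difference was 0.27 (SE 0.22), the smallest of the 5 tested cluster members.

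**Figure D1:**
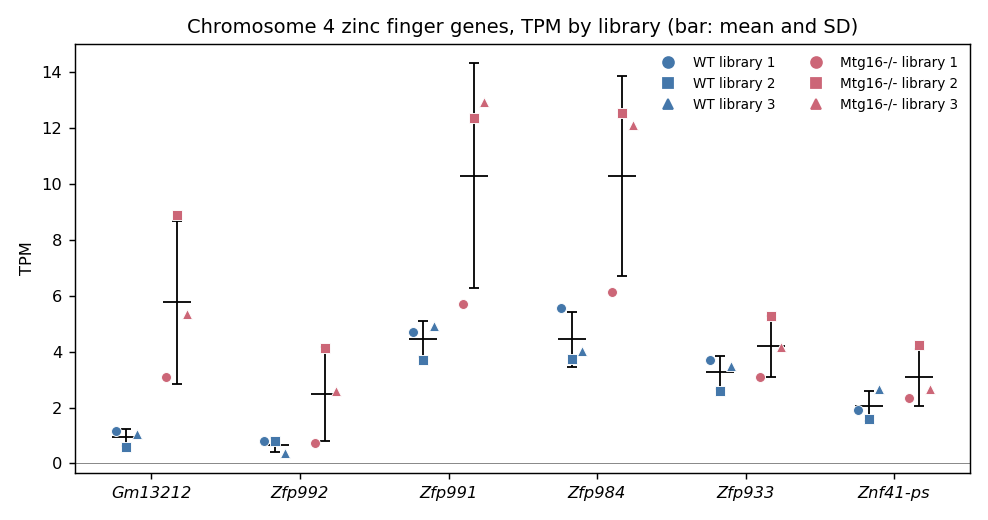
TPM of the 5 tested genes of the chromosome 4 cluster and of the pseudogene Znf41-ps in each library, with WT in blue, Mtg16-/- in red, marker shapes for the library number, and a bar for the mean with its SD (n = 3). Libraries 2 and 3 of Mtg16-/- are the 2 highest for each of the 5 cluster genes, while Mtg16-/- library 1 lies within or close to the WT values except for Gm13212.

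The other 7 cluster members were hardly expressed. Zfp979, Zfp980 and Zfp990 were listed at 0 in all 6 libraries, and Zfp981 had a single value above 0, 0.06 TPM in Mtg16-/- library 3. Zfp985 was listed at 0, 0 and 0.1 in WT and at 0.18, 0 and 0.06 in Mtg16-/-. Zfp987 had a TPM of 0.31, 0.08 and 0.28 in WT and of 0.17, 0.97 and 0.38 in Mtg16-/-, and Zfp982 of 0.36, 0 and 0.88 and of 0.26, 0.53 and 0.9. Each of these groups overlapped, and none of the 7 reached a mean TPM of 1, the minimum for the fit across genes. The promoter stretch was thus present both in Gm13212 and Zfp984, which were expressed, and in 6 members with a mean TPM under 1. Summed over all 12 members, the cluster had 16.6, 11.5 and 15.1 TPM in WT and 19.4, 44.7 and 38.6 in Mtg16-/-, a ratio of 2.37. In bulk RNA from crypts, a larger share of cells that express these genes and more RNA per cell cannot be told apart.

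Of the other zinc finger genes that the annotation places inside the cluster, Zfp600, Rex2 and Zfp534 were listed at 0 in every library. Znf41-ps had a TPM of 1.92, 1.59 and 2.65 in WT and of 2.35, 4.25 and 2.67 in Mtg16-/-. Only library 2 stood well apart, and the log2 difference was 0.41 (SE 0.24, adjusted p = 0.451 from limma). Reads of Znf41-ps and Zfp991 could have been exchanged in the counting, so their values are not independent. The 22 other genes tested within 1 Mb of the cluster included 4 higher and 18 lower in Mtg16-/-, where 46.4% of all tested genes were higher. Their median difference was -0.21, the range was -0.8 to 0.25, and 0 of them passed an adjusted p of 0.1 in limma, with 4 at an unadjusted p under 0.05, all lower, against 8.05% of all tested genes. The median over all 12268 tested genes was -0.03. GC content moved with this contrast, since the median was 53.4% in these neighbours and 36.5% in the tested cluster members. Genes outside the set with a GC content of 49.8% to 54.4% had a median difference of -0.07, with 40.3% higher. The part of GC content in the contrast between the cluster and its neighbours was not tested.

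**Figure D2:**
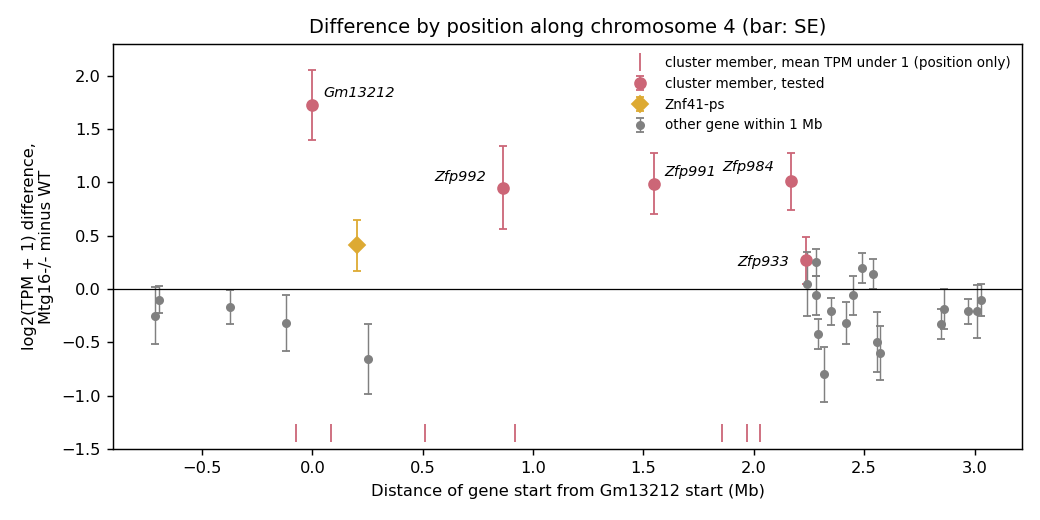
Difference on the log2(TPM + 1) scale, Mtg16-/- minus WT, against the distance of each gene's start from that of Gm13212 in Mb, with SE bars, for the 5 tested cluster members, Znf41-ps and the 22 other tested genes within 1 Mb. Gm13212, Zfp992, Zfp991 and Zfp984 lie at 0.95 or above along the cluster, while no other gene of the region exceeds 0.41. Ticks at the bottom mark the 7 members with a mean TPM under 1.

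Over the whole set, 46 of the 57 genes passed the minimum. Zfp940 (mean TPM 1.05) and Zfp947 (1.36) were just inside it and Zfp941 (0.78) and Zfp964 (0.657) just outside. Gm13212 (WT mean 0.93), Zfp992 (0.663) and Zfp947 (0.95) passed only through their higher Mtg16-/- values. Zfp973, with a Mtg16-/- mean of 0, passed only through WT. For these genes, entry into the counts and medians below was tied to the direction of their difference. Of the 46, 35 were higher and 11 lower in Mtg16-/-, with a median log2 difference of 0.37, whereas 46.4% of all tested genes were higher. The groups did not overlap for 11 genes, each with Mtg16-/- above WT, and for 0 genes the other way. Over all tested genes these shares were 9.94% and 11.1%. At an unadjusted p under 0.05 in limma, 11 genes were higher and 0 lower, against 6.53% and 8.05% of all tested genes. At an adjusted p under 0.1, 0 of the 46 were called, and 4 of the 12268 genes were, 2 higher and 2 lower (0.0163% each). Since the set was chosen with this contrast known, nothing is read from these counts.

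The number of these genes that were higher at an unadjusted p under 0.05, 11 of 46, depended on single libraries. It was 18 without Mtg16-/- replicate 1, 4 without Mtg16-/- replicate 2 and 3 without Mtg16-/- replicate 3. It was 10 without WT replicate 1, 6 without WT replicate 2 and 4 without WT replicate 3. The number over all tested genes, 1789, counts higher and lower genes together and is thus an unlike measure. It moved in the same direction in each case, to 2030, 1027, 1058, 1398, 1756 and 1482, though only slightly without WT replicate 2. The number of genes in the set with a higher mean in Mtg16-/- moved less, between 34 and 40, when each library was left out in turn, with 45 genes tested without WT replicate 1 and 46 otherwise.

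**Figure D3:**
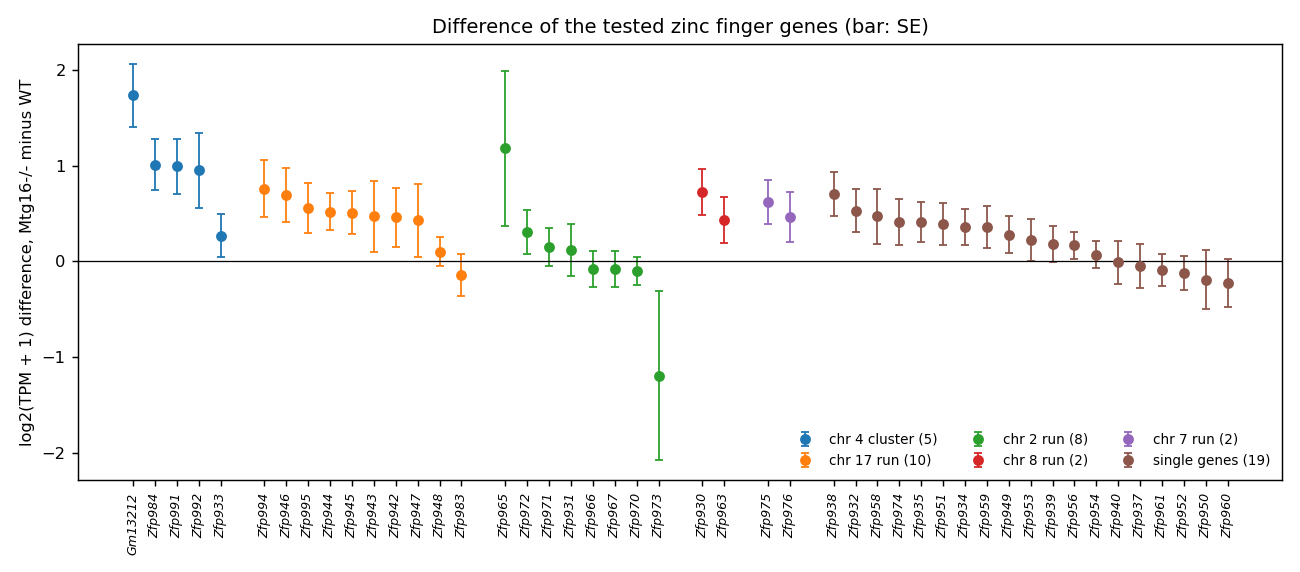
Difference on the log2(TPM + 1) scale, Mtg16-/- minus WT, of the 46 tested genes, each with its SE, grouped by genomic run and ordered by size within each group. The chromosome 4 genes and 9 of the 10 chromosome 17 genes are above 0, and the chromosome 2 genes are spread around 0.

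The chromosome 17 run held 10 members over 1.3 Mb, all tested, 9 of them with a KRAB match. Of these, 9 were higher in Mtg16-/- and 1, Zfp983, was lower, with a difference of -0.14 (SE 0.22). The median difference was 0.49. Zfp944 had a TPM of 4.19, 3.28 and 4.15 in WT and of 4.83, 6.31 and 6.84 in Mtg16-/- (log2 difference 0.52, SE 0.19), and Zfp945, which carries 18 C2H2 matches, had 1.3, 0.89 and 1.04 and then 1.45, 2.27 and 2.17 (0.51, SE 0.22). These were the 2 genes of the run whose groups did not overlap, by a narrow gap in library 1. Over all tested genes, 9.94% had Mtg16-/- above WT without overlap and 46.4% were higher. Among genes outside the set with a GC content of 31% to 45%, these shares were 13.6% and 62.8%. The median GC content of the run was 38.2%. Zfp946, the most highly expressed gene of the run, had a TPM of 13.45, 6.78 and 9.12 in WT and of 11, 18.14 and 19.73 in Mtg16-/-. Its groups overlapped, with WT library 1 above Mtg16-/- library 1, and its log2 difference was 0.69 (SE 0.28). The run summed to 52.7, 33.8 and 40.8 TPM in WT and to 42, 66.8 and 76.6 in Mtg16-/-, a ratio of 1.46.

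The chromosome 2 run of 8 members did not share this direction. It summed to 65.3, 51.3 and 60 TPM in WT and to 52.2, 70.6 and 58.6 in Mtg16-/-, a ratio of 1.03. Of its genes, 4 were higher and 4 lower, with a median difference of 0.02, and the groups of each gene overlapped. Zfp971 had a TPM of 19.28, 12.9 and 16.72 in WT and of 14.55, 21.54 and 18.64 in Mtg16-/- (0.15, SE 0.2). Zfp970 had 11.92, 11.96 and 13.11 and then 11.46, 13.55 and 9.68 (-0.1, SE 0.15).

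The most extreme values of this run came from copies that the reads can hardly separate. Zfp965 was listed at 0, 8.95 and 8.62 TPM in WT and at 9.21, 12.53 and 7.03 in Mtg16-/-. Zfp973 was listed at 11 TPM in WT library 1 and at 0 in each of the other libraries. Wherever one of the pair was at 0 the other was not, and 100% of the 100-base stretches of Zfp965 also occurred in another gene, most often Zfp973. Their sum was 11, 8.95 and 8.62 in WT and 9.21, 12.5 and 7.03 in Mtg16-/-, a ratio of 1.01. The fitted differences of 1.18 for Zfp965 and -1.19 for Zfp973 are thus left as uncertain. Zfp966 and Zfp967 had identical values in each of the 6 libraries, 7.47, 6.31 and 8.43 in WT and 5.54, 8.43 and 7.1 in Mtg16-/-, and count as 2 genes above although they hold 1 measurement.

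**Figure D4:**
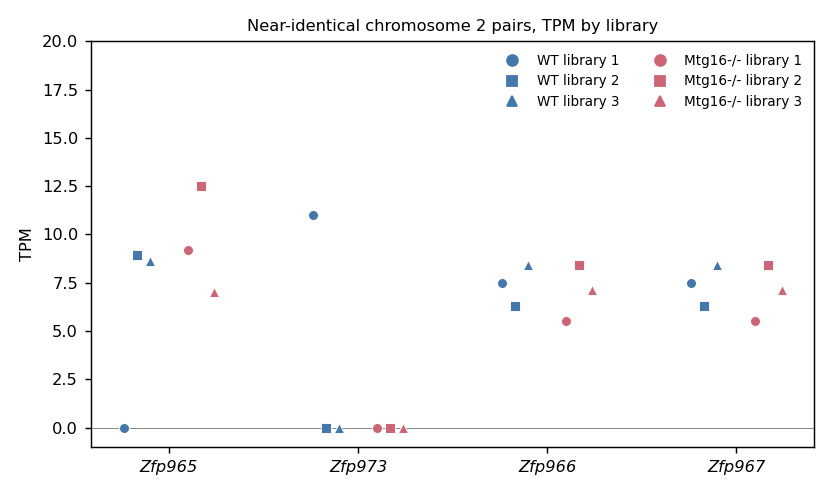
TPM by library of 2 chromosome 2 pairs of close copies, with WT in blue, Mtg16-/- in red and marker shapes for the library number. Zfp973 is at 11 in WT library 1 and at 0 in the other 5 libraries, Zfp965 shows the reverse, and Zfp966 and Zfp967 have the same value in every library.

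Outside these runs, the 6 remaining tested genes whose groups did not overlap were Zfp930, Zfp938, Zfp975, Zfp963, Zfp934 and Zfp956, all higher in Mtg16-/-. Zfp930, on chromosome 8, had a TPM of 3.21, 4.56 and 3.26 in WT and of 4.61, 8.35 and 7.52 in Mtg16-/- (log2 difference 0.72, SE 0.24). Zfp938, on chromosome 10, had 2.29, 1.79 and 1.45 and then 2.66, 3.91 and 4.4 (0.7, SE 0.23). In Zfp930 library 1 of Mtg16-/- cleared the highest WT value by a small margin, and in Zfp938 all 3 were clear of WT. Zfp975, on chromosome 7, had 1.46, 1.04 and 1.41 and then 1.88, 3.49 and 2.43 (0.62, SE 0.23). Zfp963, of the same chromosome 8 run as Zfp930, had 3.84, 3.79 and 1.86 and then 4.55, 4.85 and 4.03 (0.43, SE 0.24). Both had their lowest value in WT, at library 2 for Zfp975 and library 3 for Zfp963. Zfp934 had 1.51, 1.36 and 1.44 and then 1.94, 2.01 and 2.43 (0.36, SE 0.19), and Zfp956 had 7.06, 7.65 and 7.86 and then 8.06, 9.51 and 8.23 (0.17, SE 0.14). In both the WT libraries lay close together. The lowest Mtg16-/- library was just above them for Zfp956 (8.06 against 7.86) and clear of them for Zfp934 (1.94 against 1.51).

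Beside Zfp946, Zfp971 and Zfp970, the 5 most highly expressed genes of the set included Zfp950 and Zfp961. Zfp950, the most highly expressed gene of the set, had a TPM of 31.57, 17.96 and 17.26 in WT and of 17.49, 28 and 13.14 in Mtg16-/- (log2 difference -0.19, SE 0.31). Zfp961 had 21.67, 14.67 and 16.94 and then 14.58, 17.52 and 17.29 (-0.09, SE 0.17). WT library 1 was the highest for both, and the groups overlapped. The 19 tested genes that belong to no run had a median difference of 0.22, with 13 higher and 6 lower. Of all tested genes, 46.4% were higher.

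The libraries of one genotype differed among themselves in these genes. The mean deviation of the 46 genes from their own means over the 6 libraries was 0.02, -0.31 and -0.22 in WT and -0.11, 0.36 and 0.27 in Mtg16-/- on the log2(TPM + 1) scale. Library 1 of Mtg16-/- was thus below WT library 1, and the groups overlapped. Of the 46 genes, 33 in Mtg16-/- library 2, 27 in library 3 and 14 in library 1 were above the highest WT library. The lowest value of a gene was most often in WT library 2, for 22 of the 46. Such counts were not made over all tested genes, so they are not read as a trait of the set. In the chromosome 4 cluster the corresponding deviations were -0.33, -0.65 and -0.51 in WT and -0.13, 0.95 and 0.66 in Mtg16-/-, without overlap. Gm13212 was followed most closely over the 6 libraries by Zfp975 (r = 0.99), Zfp945 (r = 0.97), Zfp984 (r = 0.96), Zfp991 (r = 0.94) and Zfp944 (r = 0.94), genes of 3 chromosomes. These correlations rest on 6 libraries, include the difference between the groups and are given as a description. Within groups, after each group's mean was subtracted, the order was another, with r = 0.99 for Zfp975, 0.97 for Zfp933 and 0.93 for Zfp966 and Zfp967, while Zfp945 had 0.89, Zfp984 0.86, Zfp991 0.85 and Zfp944 0.76.

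Markers of differentiated cells also differed between the libraries. Enterocytes are the absorptive cells of the villus, and the 10 enterocyte markers summed to 34242, 11628 and 14414 TPM in WT and to 11788, 6473 and 5964 in Mtg16-/-. Mtg16-/- library 1 lay inside the WT range, as it did for many zinc finger genes, and libraries 2 and 3 were lowest. The 8 markers of Paneth cells, which secrete antimicrobial peptides at the crypt base, summed to 9729, 22345 and 13016 in WT and to 34295, 27067 and 27348 in Mtg16-/-, without overlap. All 10 enterocyte markers were lower and all 8 Paneth markers higher, where 46.4% of all tested genes were higher. At an unadjusted p under 0.05 in limma there were 7 and 6 of them, and 0 at an adjusted p under 0.1. Of all tested genes, 8.05% were lower and 6.53% higher at that unadjusted p. Fabp1, a fatty acid carrier of enterocytes, had 5065.42, 1642.09 and 2060.92 TPM in WT and 996.08, 411.12 and 659.98 in Mtg16-/-. Lgr5, a receptor that marks crypt stem cells, had 6.02, 8.16 and 7.33 and then 12.11, 20.16 and 9.94. The groups overlapped in neither gene, and the adjusted p from limma was 0.225 for Fabp1 and 0.266 for Lgr5. The 12 immune markers summed to between 198 and 492 TPM in WT and between 118 and 295 in Mtg16-/-. Of them, 2 were higher and 10 lower in Mtg16-/-. No marker of the 5 lists was at 0 in all libraries. The part of these cell types in the differences of the zinc finger genes was not tested.

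**Figure D5:**
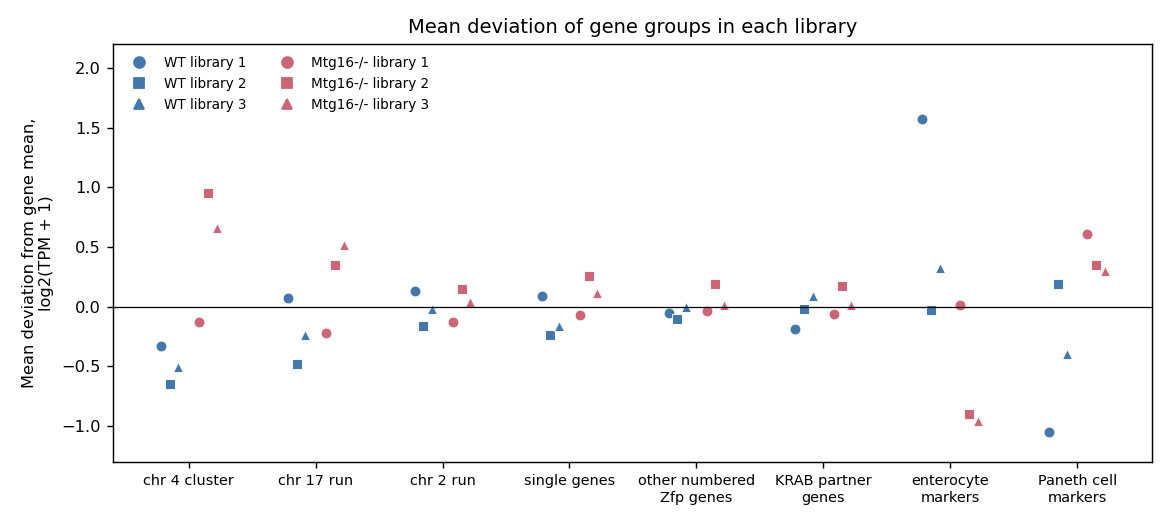
Mean deviation of each gene group from its gene means over the 6 libraries, on the log2(TPM + 1) scale, for each library, with WT in blue, Mtg16-/- in red and marker shapes for the library number. The chromosome 4 cluster reaches 0.95 and 0.66 in Mtg16-/- libraries 2 and 3, the libraries in which the enterocyte markers are lowest. Among WT, library 1 is highest both for the cluster (-0.33) and for the enterocyte markers (1.57). Paneth cell markers are highest in Mtg16-/- library 1 (0.61), where the cluster is lowest among Mtg16-/- (-0.13).

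Base composition also moved with the result. The transcripts of the 46 genes had a median GC content of 38.5% against 49.7% over all tested genes, and 42 of the 46 fell in the lowest of 4 equally large GC classes (31% to 45%). In that class the 3015 genes outside the set had a median difference of 0.07, with 62.8% higher in Mtg16-/- and 13.6% with Mtg16-/- above WT without overlap. In the class of highest GC content the median was -0.1, with 35.2% higher. Once GC content and transcript length were fitted and subtracted, an alternative added after the data were seen, 32 of the 46 genes were higher, against 46.2% of all genes. The median difference was then 0.73 in the chromosome 4 cluster in place of 0.99, and 0.18 in place of 0.36 in the other members. Zfp934 then had a difference of 0.09 in place of 0.36, Zfp938 of 0.43 in place of 0.7, Zfp944 of 0.32 in place of 0.52 and Zfp945 of 0.29 in place of 0.51. Gm13212 had a difference of 1.46 and Zfp984 of 0.75, and 6 genes in place of 11 were higher at an unadjusted p under 0.05.

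The 303 other numbered Zfp genes, which lie all over the genome and include many proteins without a KRAB domain, went the same way by less. Of the 240 tested, 166 were higher and 74 lower, with a median difference of 0.12, a median GC content of 45.5% and 0 at an adjusted p under 0.1 in limma. At an unadjusted p under 0.05, 21 were higher (6.53% of all tested genes were) and 6 lower (8.05%). The median was 0.04 without Mtg16-/- replicate 2, 0.08 without WT replicate 2 and 0.07 with GC content and length subtracted. The 41 tested members outside chromosome 4 had a median of 0.36, with 30 higher and 11 lower.

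The partners through which KRAB proteins act were all expressed, and none of the 34 tested passed an adjusted p of 0.1. Of them, 23 were higher and 11 lower, with a median difference of 0.08, and at an unadjusted p under 0.05 in limma 2 were higher and 1 lower, against 6.53% and 8.05% of all tested genes. Trim28, the scaffold that binds the KRAB domain, had a TPM of 107.55, 151.91 and 163.9 in WT and of 150.39, 184.69 and 163.16 in Mtg16-/-, which overlapped (log2 difference 0.25, SE 0.18, adjusted p = 0.525). Setdb1, which methylates histone H3 at lysine 9, differed by -0.01 (SE 0.17, adjusted p = 0.987). Of the HP1 genes, whose products bind that mark, Cbx1 differed by -0.17 (SE 0.14, adjusted p = 0.575), Cbx5 by 0.24 (SE 0.17, adjusted p = 0.516) and Cbx3 by 0.57 (SE 0.22, adjusted p = 0.313). Cbx3 had 78.15, 106.91 and 115.76 TPM in WT and 109.47, 158.65 and 183.9 in Mtg16-/-, with library 1 inside the WT range. The 3 partners at an unadjusted p under 0.05 were Cbx3 and Rbbp7, a histone-binding subunit of several co-repressor complexes, on the higher side, and Chd3, a remodelling enzyme of the NuRD complex, on the lower side. Both numbers lie below the shares of all tested genes.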

How the data were processed

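RNA was taken from crypts of 3 WT and 3 Mtg16-/- mice, with ribosomal RNA depleted, 200 ng of input and 14 PCR cycles. Per the labels, the submitters' notes name cutadapt 1.9.1, STAR 2.5.2a, RSEM 1.3.0, DESeq2 1.12.3 and mm10. The authors deposited TPM values for 24736 symbols, rounded to 2 decimals. DESeq2 needs counts and was not run here, so the test is limma 3.58.1 (R 4.3.3) on log2(TPM + 1), with an intensity trend, no covariates and Benjamini-Hochberg adjustment, for 12268 genes whose mean TPM reached 1. The limit for a call was an adjusted p under 0.1. The calculation was tested on simulated data. Libraries were grouped by the genotype in the labels, and each is a separate mouse.

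A run is a row of at least 3 members whose neighbouring starts are at most 1 Mb apart in RefSeq GRCm38.p6, the assembly of mm10. GC content, length, exons and reading frames come from GENCODE vM21, and promoters from RefSeq. Protein sequences were not used here. The members and the lists of partners and markers were chosen with earlier results of these data known. The genes named are all cluster members, the 5 members with the highest mean TPM, members outside the cluster without overlap between groups (at most 8 in each direction), those nearest the filter, expressed zinc finger neighbours, Cbfa2t3, Trim28, Setdb1 and the HP1 genes. The chromosome 2 pairs, Zfp983, Rbbp7, Chd3, Fabp1 and Lgr5 were named after their values were seen. Alternatives were a pseudocount of 0.1, no filter, a minimum mean TPM of 5, median-ratio and quantile scaling, robust moderation, no trend, a replicate block, each library left out, runs with gaps of 0.5 or 2 Mb, and, added after the data were seen, a correction for GC content and length.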

Additional observations from a re-analysis of the deposited data

How the results depend on the processing

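The median of all genes lay between -0.06 and 0.02 in every setting tried, so no scaling shifted the differences as a whole. Of the 46 tested members, 35 kept one sign of difference in all settings run, judged on values rounded to 2 decimals. For Zfp953 and Zfp954 the lowest rounded value was 0. Of 752 single-gene values under alternatives 738 moved by less than 1 SD. The changed filters, robust moderation, no trend and the replicate block leave a gene's difference as it was by construction. Values under those settings could not move, so the 738 overstates stability. The number of genes at an adjusted p under 0.1, 4 of all tested genes, was 0 with median-ratio rescaling, with no filter and with no intensity trend, 1 with quantile normalization, 15 at a mean TPM of at least 5, 20 with robust moderation and 23 with the GC and length correction. With each library left out in turn it lay between 0 and 40, the 40 without WT replicate 1, and the number at an unadjusted p under 0.05, 1789, lay between 1027 and 2030. At a mean TPM of at least 5, 20 members were tested, of which 14 were higher, 5 of them at an unadjusted p under 0.05. The median of the members outside the cluster was then 0.16. Members higher at an unadjusted p under 0.05 were 6 with the GC and length correction and between 3 and 18 with a library left out. With no filter the cluster median was 0.27, since its 4 barely expressed members entered. The difference of Znf41-ps was 0.07 after the GC and length correction. Partner genes at an unadjusted p under 0.05 were 5 with quantile normalization and between 0 and 5 with a library left out (5 without Mtg16-/- replicate 1, and 0 without Mtg16-/- replicate 2, Mtg16-/- replicate 3 or WT replicate 1). The cause of these changes was not tested, apart from the fewer or additional genes that a filter brings.

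The groups share replicate numbers, but the numbers are not stated to pair the mice. Deviations of same-numbered libraries correlated with r = 0.429, 0.0753 and 0.237, and WT library 2 correlated best with Mtg16-/- library 3 (r = 0.198). With the replicate number as a block, 1201 genes were at an adjusted p under 0.1 and 2775 at an unadjusted p under 0.05, with 4 members at an adjusted p under 0.1 and 6 partner genes at an unadjusted p under 0.05. The differences themselves stayed the same with the block. Depth is not known from TPM, so a value of 0 gives no upper limit.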
